A study of Macaca fascicularis with 20 samples.

Results

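The imprinted miR-127/miR-136 cluster is a run of 9 miRNA genes near MEG3, in the DLK1-DIO3 domain. It holds mir-493, mir-337, mir-665, mir-431, mir-433, mir-127, mir-432, mir-136 and mir-370, and was taken by these names from the 828 miRNA names that both count tables share. All 9 names were found, which gave 18 of 1656 arms, since each hairpin has a 5p and a 3p arm. The rule used no measured value.

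Small RNA had been sequenced from laser-cut pieces of the fetal visual cortex of the crab-eating macaque (Macaca fascicularis), with no treatment or genotype named for any animal. The 7 regions were the ventricular zone (VZ_17 and VZ_18), where radial glia divide, the outer subventricular zone (OSVZ_17int, OSVZ_17ext and OSVZ_18), a thick germinal layer in primates, and the cortical plate (CP_17 and CP_18), where young neurons settle. The number is the cortical area, and int and ext are the inner and outer sublayers of the area 17 OSVZ. Each region had 1 library at embryonic day 80 (set 1) and 1 at embryonic day 79 (set 2), so VZ had 4 libraries, OSVZ 6 and CP 4. The sources used here do not say how many animals a set holds, so the p-values speak only of the spread among these 14 libraries, some of which may be technical.

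In mammals the DLK1-DIO3 domain is imprinted: its noncoding RNAs, among them MEG3 and the miRNAs, are made from the maternal chromosome, while DLK1, RTL1 and DIO3 are made from the paternal one. The miRNAs miR-431, miR-433, miR-127, miR-432 and miR-136 lie in a transcript antisense to RTL1, a gene of retrotransposon origin, and in the mouse miR-127 and miR-136 repress Rtl1 through fully matching sites. The domain is known for high activity in brain and placenta, and a second, larger miRNA cluster, miR-379/miR-410, lies downstream. In the RefSeq gene table of the T2T-MFA8v1.1 assembly the genes BEGAIN, DLK1, RTL1 and DIO3 follow one another in this order. The assembly behind the counts is not given in these sources.

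Library totals ran from 3603478 to 9517217 counts, so 1 count stood for 0.0932 to 0.230 CPM (counts scaled to a common library size) after TMM scaling, which sets that size from the bulk of the arms. The progenitor miRNA miR-92b-3p was at 38823 ± 12518 CPM in VZ, 18918 ± 4108 CPM in OSVZ and 786 ± 277 CPM in CP (SD, n = 4, 6 and 4), and the neuronal miR-137-3p was at 24.5, 41.7 and 813 CPM on average in the same zones. The arm miR-124-3p, abundant in neurons, was close to 0 everywhere, at 2.99 CPM or less. In set 1 miR-130b-3p took 2.44% to 25.5% of all counts, against 0.263% to 0.440% in set 2, and TMM factors were 0.567 to 1.32 in set 1 and 1.04 to 1.51 in set 2. One library, VZ_18 of set 1, stood apart from the other VZ libraries. Its 4 erythroid arms (miR-451 and miR-144) summed to 261 CPM, against 24.9 to 62.9 CPM in the other VZ libraries, and its 6 myeloid and lymphoid arms (miR-223, miR-142 and miR-155) to 631 CPM, against 217 to 549 CPM. In OSVZ libraries the erythroid sum was 10.3 to 81.3 CPM and the myeloid and lymphoid sum 146 to 303 CPM, and in CP libraries the erythroid sum reached 120 CPM and the other was 50.6 to 81.5 CPM. In VZ_18 of set 1 the arm miR-451-3p was at 0, and all 6 myeloid and lymphoid arms had counts. Of the other lists, the 6 neuronal arms summed to 753 CPM there, against 253 to 344 CPM in the other VZ libraries, and the 4 oligodendrocyte arms to 317 CPM, against 115 to 219 CPM. The 2 liver and muscle arms (miR-1) summed to 76.1 CPM there, against 17.2 to 68.1 CPM. The 2 progenitor arms were lower there, at 25991 CPM against 31525 to 52634 CPM, and so were the 4 mural arms, at 689 CPM against 1364 to 1704 CPM. Within the myeloid and lymphoid list miR-155-5p was at 81.8 CPM there and at 183 ± 118 CPM over the 4 VZ libraries (SD). The part of these markers in the results below was not tested.

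The cluster was a minor part of these libraries. Its 18 arms together took 0.00773% of the counts in OSVZ_17int of set 1 (95% Wilson interval 0.00717% to 0.00834%), the lowest library, and 0.0625% in VZ_18 of set 1 (0.0608% to 0.0642%), the highest. These intervals cover counting error only. Summed over the 18 arms, the cluster was at 244 ± 159 CPM in VZ, 146 ± 29.1 CPM in OSVZ and 235 ± 69.3 CPM in CP. The ranges of the 3 zones overlapped, with 114 to 474 CPM in VZ, 104 to 190 CPM in OSVZ and 164 to 320 CPM in CP. Without VZ_18 of set 1, VZ was at 167 ± 48.4 CPM (SD, n = 3), which is below the CP mean. Because these are bulk samples, fewer expressing cells and less RNA per cell cannot be told apart.

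Over the 14 libraries 6 arms averaged 10 CPM or more, 1 from each of 6 hairpins. They were miR-432-5p (33.5 CPM over all libraries), miR-127-3p (32.1), miR-370-3p (31.1), miR-337-3p (26.3), miR-493-5p (15.6) and miR-433-5p (14.96). Another 10 arms averaged 1.62 to 8.29 CPM and were tested as well. Both arms of miR-665 were removed by the filter on low counts, with 22 counts of the 5p arm and 83 of the 3p arm in all libraries together. The filter kept an arm that was high in only 1 region. Of the 1139 arms that passed it, the median arm had a mean of 4.09 CPM, and the 16 arms of the cluster had a median of 7.55 CPM.

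Which arm of a hairpin was recovered differed from member to member. From miR-337 and miR-370 the 3p arm made up most counts in all 14 libraries, and the 5p arm held a pooled 5.28% of 3052 counts and 5.96% of 3088 counts. Without VZ_18 of set 1 these shares were 9.02% of 1763 counts and 2.94% of 2717 counts. From miR-432 the 5p arm held most counts in all 14 libraries, with a pooled 94.1% of 3244 counts. The pair miR-127 and miR-493 each had 1 exception among the 14. The 3p arm of miR-127 led except in OSVZ_17int of set 2, where the 5p arm had 54 of 97 counts. The 5p arm of miR-493 led except in VZ_18 of set 1, where it had 49 of 306 counts, or 16.01% (95% Wilson interval 12.3% to 20.5%).

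**Figure D1:**
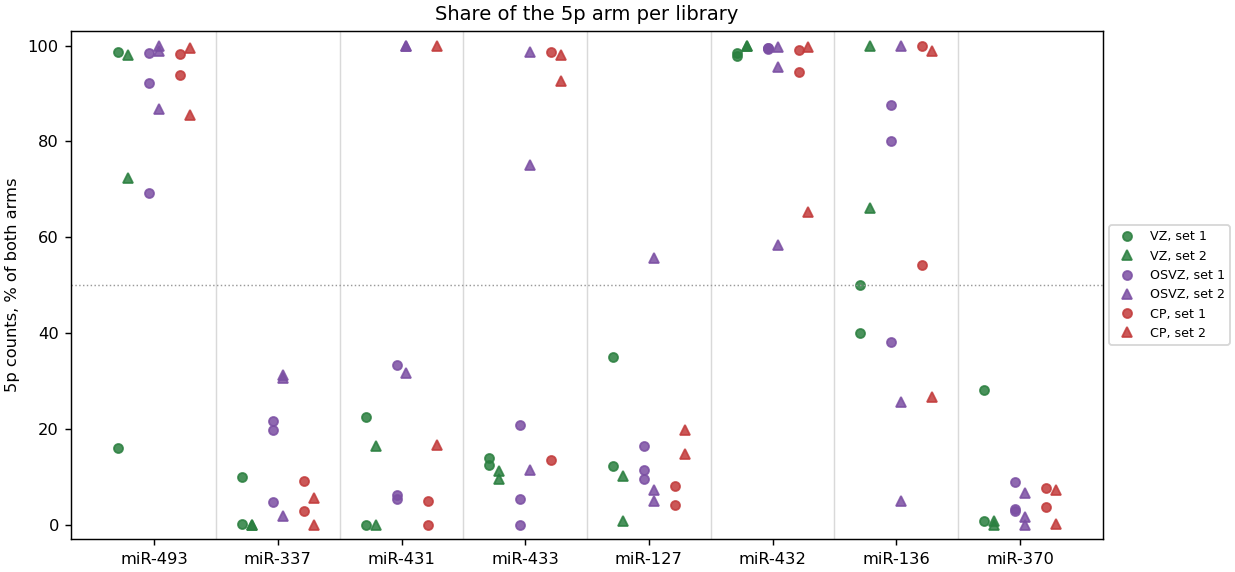
Share of the 5p arm among the counts of both arms of a hairpin, in percent (vertical axis), for the 8 hairpins with tested arms (horizontal axis). Each point is 1 library, coloured by zone, with circles for set 1 and triangles for set 2. The points of miR-432 lie above 50% and those of miR-337 and miR-370 below it, while miR-136, miR-433 and miR-431 have points on both sides.

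The other members were mixed. From miR-136, the 5p arm led in 8 libraries and the 3p arm in 5, and 1 library held 11 counts of each. From miR-431, the 3p arm led in 11 of 14 libraries, and the 5p arm held a pooled 24.5% of 1365 counts, or 29.6% of 402 counts without VZ_18 of set 1. From miR-433, the 5p arm held 9.41% to 13.9% of the counts in the 4 VZ libraries, whereas in CP it held 92.7%, 98.1% and 98.7% in 3 libraries and 13.5% in CP_17 of set 1. In OSVZ the 5p share of miR-433 was 0% at its lowest (0 of 12 counts, with a Wilson upper bound of 24.2%), 16.03% at the median and 98.7% at its highest.

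The ratio of the arms, taken within a library, does not depend on how libraries are scaled, and was tested with limma on log2((5p + 0.5)/(3p + 0.5)) over the 262 miRNA names whose arms both averaged at least 10 counts. Where an arm had 0 counts, as miR-370-5p did in VZ_18 of set 2 (0 of 397), the value depends on depth and on the added 0.5. The 8 members other than miR-665 entered. Of these, miR-493, miR-431 and miR-370 reached the minimum only through VZ_18 of set 1. That library held 257 of 374 counts of miR-493-3p, 216 of 335 of miR-431-5p and 104 of 184 of miR-370-5p. In the 3 comparisons between zones 0 of 8 members were called at an adjusted p under 0.05. At an unadjusted p under 0.05 there were 1, 0 and 1 of 8. Over all 262 names limma called 0.382% between VZ and CP, 0 between OSVZ and CP and 0 between OSVZ and VZ, and 39, 21 and 11 names had an unadjusted p under 0.05. The lowest p for VZ against CP among members was that of miR-433, whose log2 ratio differed by -5.92 ± 1.91 (SE; limma adjusted p = 0.233). Between OSVZ and VZ it was that of miR-337, whose log2 ratio was 3.91 ± 1.24 higher in OSVZ (limma adjusted p = 0.679).

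The comparison of VZ with CP asks whether these miRNAs differ between the layer where radial glia divide and the one where young neurons settle. Both are bulk tissue, so it does not compare these cell types themselves. Of the 16 tested arms, 1 was called lower in VZ, 0 were called higher and 15 did not pass edgeR's quasi-likelihood test at an adjusted p under 0.05, with p-values adjusted over all 1139 arms. Over all arms 7.37% were called in this comparison, 2.63% as higher and 4.74% as lower, so 1 of 16 members is a share close to that background. The median log2 difference was -0.03 for the members and -0.22 for all arms, and both medians were above 0 with DESeq2 size factors (0.21 and 0.02) and with library totals (0.37 and 0.21). Without VZ_18 of set 1 they were -0.17 and -0.44.

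The called arm was miR-433-5p. Its hairpin is known for the opposite arm, miR-433-3p, whose target FGF20 has been studied in dopamine neurons. In VZ miR-433-5p was at 0.215 and 1.02 CPM in set 1 (VZ_17 and VZ_18) and 2.17 and 0.726 CPM in set 2. In CP it was at 1.15 and 97.4 CPM in set 1 (CP_17 and CP_18) and 9.05 and 51.9 CPM in set 2. Both CP_18 libraries were far above every VZ library, while CP_17 of set 1, with 5 counts, lay within the VZ range. The fitted log2 difference was -4.29 ± 1.22 (SE, 95% interval -6.76 to -1.81, edgeR adjusted p = 0.0216), and the difference of log2(CPM + 0.5) was -3.61 within set 1 and -3.63 within set 2.

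The call did not hold under 6 alternatives, in each of which the difference stayed below 0. It was -4.22 without the set as a block (adjusted p = 0.131) and -3.78 with library totals in place of TMM (0.0937). With only arms at 10 CPM or more before TMM scaling, a set with 7 members, the difference was -4.18 (0.0517). It was -3.88 without VZ_18 of set 2 (0.0954), -3.77 without CP_17 of set 2 (0.112) and -3.06 without CP_18 of set 1 (0.318). With VZ_18 of set 1 left out the difference was -5.11 (adjusted p = 0.0351). The other arm, miR-433-3p, was at 1.51 to 20.8 CPM in VZ and 0.714 to 7.36 CPM in CP. It did not pass and its fitted difference had the opposite sign (2.27 ± 1.49, adjusted p = 0.388).

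In OSVZ miR-433-5p was at 0 CPM at its lowest, 0.612 CPM at the median and 43.2 CPM at its highest, the last in OSVZ_18 of set 2. That library lay inside the CP range, and 5 of 6 OSVZ libraries lay at 1.21 CPM or less. The difference from CP did not pass (-3.01 ± 1.09, adjusted p = 0.109), and was -4.05 within set 1 and -1.69 within set 2. Without OSVZ_18 of set 2 it was -5.75 (adjusted p = 0.0453). It also passed with DESeq2 (-2.90, adjusted p = 0.0436), and with VZ_17 of set 1 (adjusted p = 0.0292) or VZ_17 of set 2 (0.0355) left out of the fit.

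**Figure D2:**
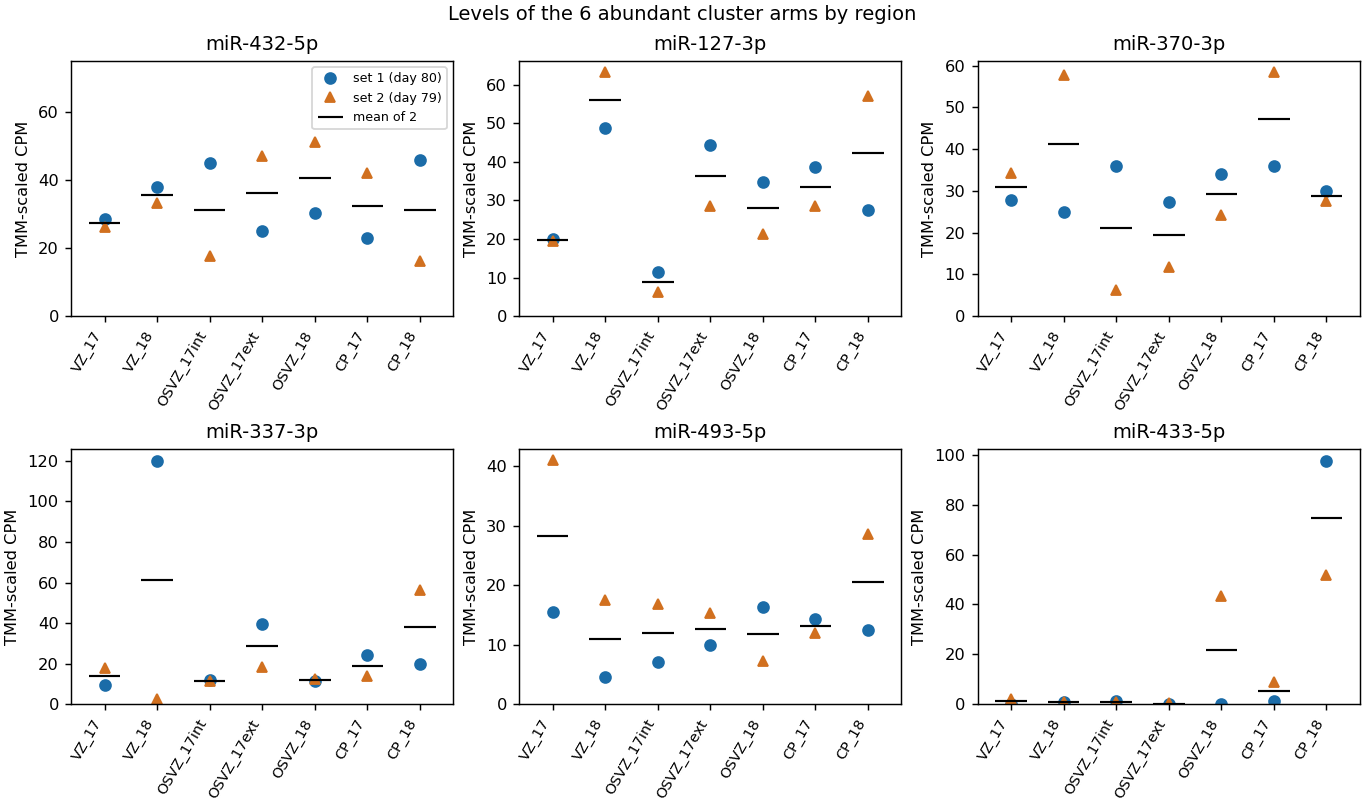
TMM-scaled CPM (vertical axes, from 0) of the 6 most abundant cluster arms in the 7 regions (horizontal axes). Circles are set 1 libraries, triangles set 2 libraries and bars the mean of the 2. For miR-433-5p both CP_18 points stand at 51.9 and 97.4 CPM and both VZ regions lie under 2.2 CPM, while the other 5 arms have VZ, OSVZ and CP points at shared heights.

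The most abundant arm, miR-432-5p, was the steadiest of the 6. It was at 28.6 and 38.0 CPM in VZ in set 1 (VZ_17 and VZ_18) and 26.1 and 33.2 CPM in set 2, and at 23.01 and 46.1 CPM in CP in set 1 and 42.0 and 16.2 CPM in set 2. In OSVZ it was at 17.6 CPM at its lowest, 37.7 CPM at the median and 51.1 CPM at its highest. All 3 zones overlapped. Its log2 difference between VZ and CP had a 95% interval from -1.39 to 1.34, which leaves room for changes of more than 2-fold in either direction.

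The arm miR-127-3p, the Rtl1-repressing product of the domain's best-known miRNA, was at 20.0 and 48.8 CPM in VZ in set 1 (VZ_17 and VZ_18) and 19.5 and 63.3 CPM in set 2. In CP it was at 38.7 and 27.5 CPM in set 1 (CP_17 and CP_18) and 28.5 and 57.0 CPM in set 2, and in OSVZ at 6.35 CPM at its lowest, 24.9 CPM at the median and 44.3 CPM at its highest. The zones overlapped and the zone means of VZ and CP were both 37.9 CPM, whereas within VZ the area 17 library was below the area 18 one in both sets. Neither VZ nor OSVZ passed against CP (-0.18 ± 0.67, adjusted p = 0.911, and -0.78 ± 0.63, adjusted p = 0.674).

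The arm miR-370-3p, from the hairpin at the downstream end of the cluster, was at 27.7 and 24.9 CPM in VZ in set 1 (VZ_17 and VZ_18) and 34.2 and 57.6 CPM in set 2. The CP values were 35.9 and 29.9 CPM in set 1 and 58.5 and 27.7 CPM in set 2, with the zones overlapping. In OSVZ the values were 6.21 CPM at the lowest, 25.8 CPM at the median and 36.0 CPM at the highest. The 2 lowest of all 14 libraries were the area 17 OSVZ libraries of set 2, at 6.21 and 11.8 CPM.

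The arm miR-337-3p was at 9.68 and 120 CPM in VZ in set 1 (VZ_17 and VZ_18) and 17.7 and 2.32 CPM in set 2. CP had 24.4 and 19.9 CPM in set 1 and 13.7 and 56.5 CPM in set 2, and OSVZ had 11.2 CPM at its lowest, 12.04 CPM at the median and 39.5 CPM at its highest. The lowest and the highest of all 14 values both came from VZ_18. Its log2 difference of VZ from CP was 0.0047 ± 0.88 with all libraries and -2.06 (adjusted p = 0.305) without VZ_18 of set 1. Neither value passed.

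The arm miR-493-5p, from the hairpin at the upstream end of the cluster, was at 15.5 and 4.56 CPM in VZ in set 1 (VZ_17 and VZ_18) and 41.0 and 17.4 CPM in set 2. The CP levels were 14.3 and 12.4 CPM in set 1 and 12.02 and 28.6 CPM in set 2, and OSVZ had 7.08 CPM at its lowest, 12.7 CPM at the median and 16.8 CPM at its highest. VZ held both the lowest and the highest library, and the zones overlapped.

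Ordered by their mean, the 7 regions formed no clear series for most of these arms. Overlaps of neighbouring regions were not counted over all arms, so those given here only describe the members. For miR-432-5p, miR-370-3p, miR-337-3p and miR-493-5p the 2 libraries of each region overlapped those of the next region in the order, in 6 of 6 neighbouring pairs. The highest region was OSVZ_18 for miR-432-5p (40.8 CPM), CP_17 for miR-370-3p (47.2 CPM), VZ_18 for miR-337-3p (61.1 CPM) and VZ_17 for miR-493-5p (28.2 CPM). The VZ_18 libraries of miR-337-3p were at 120 CPM in set 1 and 2.32 CPM in set 2, so that rank rests on 1 library. For miR-127-3p the order was VZ_18 (56.1 CPM), CP_18, OSVZ_17ext, CP_17, OSVZ_18, VZ_17 (19.7 CPM) and OSVZ_17int (8.84 CPM), and the last 2 steps were without overlap. For miR-433-5p CP_18 (74.7 CPM) lay above OSVZ_18 (21.7 CPM) without overlap, and OSVZ_17ext was lowest (0.242 CPM), below VZ_18 without overlap. That last gap was near the floor, with 0 and 3 counts in OSVZ_17ext (sets 1 and 2) against 11 and 5 in VZ_18.

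Among the members with lower counts, both arms of miR-431, known in the mouse for a role in axon regeneration, had larger fitted values in VZ than in CP without passing. In VZ, miR-431-3p was at 1.08 and 69.6 CPM in set 1 (VZ_17 and VZ_18) and 11.1 and 7.26 CPM in set 2. In CP it was at 4.37 and 6.64 CPM in set 1 and at 0 and 0.634 CPM in set 2. Only in set 2 were both VZ libraries above both CP libraries. The log2 difference was 3.71 ± 1.47 (adjusted p = 0.137) with all libraries, 3.65 (adjusted p = 0.369) without VZ_18 of set 1, and 1.21 (adjusted p = 0.712) without VZ_17 of set 2. It passed with DESeq2 (4.02, adjusted p = 0.0138), without the filter on low counts (3.98, adjusted p = 0.0483) and without VZ_17 of set 1 (4.49, adjusted p = 0.0196). Its partner miR-431-5p had 216 counts in VZ_18 of set 1 and at most 51 in any other, and its fitted difference of 4.26 ± 1.91 (adjusted p = 0.197) turned to -1.79 (adjusted p = 0.727) without that library, while DESeq2 with all libraries called it (4.83, adjusted p = 0.0354). DESeq2 called 3 of 16 members between VZ and CP, and 14.8% of all arms.

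The arms of miR-136 were high in VZ_18 of set 1 and in parts of CP. In VZ, miR-136-5p was at 2.37 and 29.3 CPM in set 1 and 0.135 and 5.37 CPM in set 2. In CP it was at 6.44 and 5.76 CPM in set 1 and 21.2 and 13.6 CPM in set 2. In OSVZ it was at 0.591 CPM at its lowest, 1.998 CPM at the median and 3.24 CPM at its highest. Every OSVZ library thus lay below every CP library, a separation that was not counted over all arms. That difference did not pass with edgeR (-2.76 ± 1.21, adjusted p = 0.240) and passed with DESeq2 (-2.56, adjusted p = 0.0207). Over all arms edgeR called 6.32% between OSVZ and CP, 2.11% as higher and 4.21% as lower, and 0 of the 16 member arms, of which 2 had an unadjusted p under 0.05, as did 15.5% of all arms. DESeq2 called 2 of 16, the other being miR-433-5p, and 120 of 1139 arms, and gave no adjusted p for 1 of the members.

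**Figure D3:**
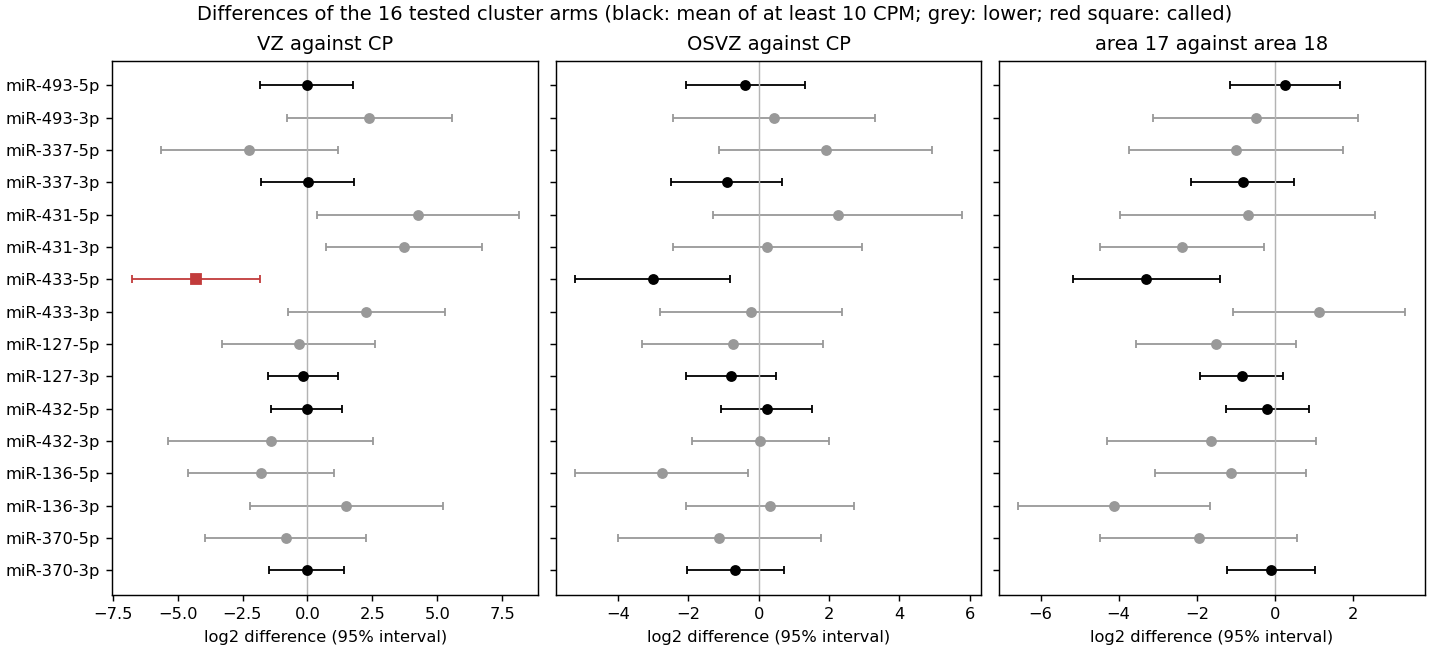
Log2 differences (horizontal axes) of the 16 tested cluster arms (rows) between VZ and CP, OSVZ and CP, and areas 17 and 18, with 95% intervals from the edgeR fit. Black points are the 6 most abundant arms, grey points are the 10 others, and the red square is the 1 called arm, miR-433-5p in VZ against CP. The standard errors between VZ and CP are 0.67 to 1.22 for the 6 and 1.39 to 1.94 for the others, so the grey intervals are wider.

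Set directly against VZ, OSVZ had 0 of 16 members called by edgeR, 2 at an unadjusted p under 0.05 and 0 called by DESeq2. Over all arms edgeR called 0.0878%, 9.92% had an unadjusted p under 0.05, and DESeq2 called 2.46%. The 2 were miR-337-5p (4.14 ± 1.72, adjusted p = 0.464) and miR-431-3p (-3.46 ± 1.29, adjusted p = 0.420). In OSVZ miR-337-5p was at 0.323 to 5.43 CPM, and in VZ at 0 to 1.08 CPM with 0 counts in both set 2 libraries. The members' median log2 difference was -0.61, against 0.12 for all arms, and it was 0.09 without VZ_18 of set 1, against 0.27 for all arms.

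Between the sublayers of the area 17 OSVZ, 0 of 16 members and 0 of all arms were called by edgeR, with 2 members and 46 arms at an unadjusted p under 0.05. DESeq2 called 0 members and 2 arms. The abundant miR-127-3p was at 11.3 and 6.35 CPM in the inner sublayer in sets 1 and 2, against 44.3 and 28.4 CPM in the outer sublayer. Both inner libraries lay below both outer ones, with differences of -1.92 and -2.08 on the log2(CPM + 0.5) scale in sets 1 and 2. How many of all arms were separated so was not counted. The fitted difference was -2.04 ± 0.98 (unadjusted p = 0.0450, edgeR adjusted p = 0.938). The other was miR-136-3p, at 5.26 and 11.4 CPM in the inner and 0.615 and 0 CPM in the outer sublayer (4.69 ± 2.28, edgeR adjusted p = 0.938).

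Areas 17 and 18 are neighbouring visual areas that later differ in neuron number. No member was called between them by edgeR (0 of 16, with 3 at an unadjusted p under 0.05), where 0.0878% of all arms were called and 8.69% had an unadjusted p under 0.05. DESeq2 called 2 of 16, miR-433-5p and miR-136-3p, and 16 of 1139 arms, and gave no adjusted p for 2 of the members. The log2 difference was below 0, or lower in area 17, for 14 of 16 members, with a median of -0.92, while 60.3% of all arms were below 0, with a median of -0.23. Without VZ_18 of set 1, 10 of 16 members were below 0 with a median of -0.19, while 570 of all 1139 arms were below 0 with a median of -0.00056. The arms are not independent, since they share a domain and libraries.

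The largest of these differences was in miR-136-3p, at -4.12 ± 1.21 (edgeR adjusted p = 0.182). In area 17 it had 11, 26, 4 and 0 counts in set 1 (VZ_17, OSVZ_17int, OSVZ_17ext and CP_17) and 0, 77, 0 and 2 counts in set 2. In area 18 it had 473, 2 and 22 counts in set 1 (VZ_18, OSVZ_18 and CP_18) and 19, 32 and 294 counts in set 2. In VZ and CP the area 17 library was below the area 18 library of the same set each time, and in OSVZ the inner area 17 library was above it each time. The difference was -2.48 (adjusted p = 0.680) without VZ_18 of set 1 and -6.15 (adjusted p = 0.00890) without VZ_17 of set 1. The arm miR-433-5p followed in size, at -3.29 ± 0.92 (edgeR adjusted p = 0.157), with a difference of -2.14 within set 1 and -2.21 within set 2 on the log2(CPM + 0.5) scale. Without OSVZ_18 of set 2 it was -1.12 (adjusted p = 1). Its CP_17 libraries had 5 and 76 counts in sets 1 and 2, against 440 and 409 in CP_18. In VZ the areas overlapped, with 1 and 16 counts in VZ_17 and 11 and 5 in VZ_18.

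Between the sets 0 of 16 members were called by edgeR, with 1 at an unadjusted p under 0.05, where 5.09% of all arms were called, 3.42% as higher and 1.67% as lower in set 1, and 16.9% had an unadjusted p under 0.05. DESeq2 called 2 of 16, the arms of miR-431, in opposite directions, and 15.9% of all arms. The difference of set 1 from set 2 was 2.81 ± 1.35 for miR-431-3p (edgeR adjusted p = 0.282) and -3.14 ± 1.61 for miR-431-5p (edgeR adjusted p = 0.331). Embryonic day, animal and library preparation cannot be told apart in this comparison. The 6 abundant arms had log2 differences between -1.77 (miR-433-5p) and 0.43 (miR-337-3p).

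The library VZ_18 of set 1 held many of the extreme values of the cluster. It held the highest of 14 values for 9 of 18 member arms, namely miR-493-3p, miR-337-3p, miR-665-3p, both arms of miR-431, miR-127-5p, both arms of miR-136 and miR-370-5p, while it held the highest value for 17.8% of all tested arms. Relative to the median of the other 13 libraries, member arms were higher there by a median of 2.28 on the log2(CPM + 0.5) scale, against 0.04 for all tested arms. The other 9 arms were higher in another library, among them miR-337-5p at 0.186 CPM and miR-432-3p at 0.559 CPM in this one. In this library miR-493-3p had 257 counts and at most 46 elsewhere, miR-370-5p had 104 counts and at most 25 elsewhere, and miR-665-3p had 73 counts and at most 3 elsewhere. By contrast miR-432-5p, miR-370-3p and miR-127-3p lay within the range of the others there, at 38.0, 24.9 and 48.8 CPM, and miR-493-5p was at its lowest, at 4.56 CPM. The same library was highest of 14 for 3 of 4 erythroid and 5 of 6 myeloid and lymphoid arms. It was also highest for 1 of 4 mural, 1 of 4 choroid plexus, 1 of 4 oligodendrocyte and 1 of 2 liver and muscle arms. For the 2 progenitor, 6 neuronal and 2 endothelial arms it was highest for 0. The part of these markers in the member values was not tested.

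**Figure D4:**
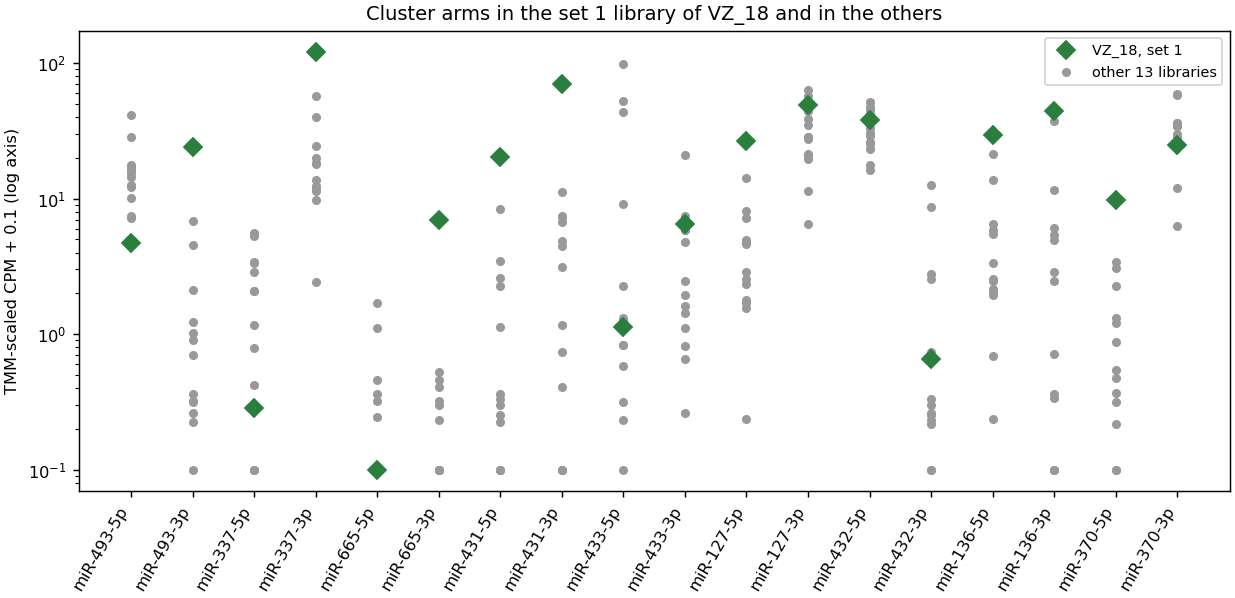
TMM-scaled CPM plus 0.1 (vertical axis, log scale) of the 18 cluster arms (horizontal axis) in VZ_18 of set 1 (green diamonds) and in the other 13 libraries (grey points). The diamond is the highest point for 9 arms, among them miR-431-3p at 69.6 CPM and miR-337-3p at 120 CPM, and lies among the others for miR-432-5p at 38.0 CPM.

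Member arms were about as often opposed as alike in their order across libraries. Over 120 pairs of tested member arms, Spearman's rho of log2(CPM + 1) across 14 libraries had a median of 0.04 (-0.61 to 0.70), or -0.04 without VZ_18 of set 1. The 15 member pairs with both arms at 10 CPM or more had a median of 0.02 (-0.56 to 0.38). Pairs of other arms with at least 10 CPM also had a median of 0.02. The libraries share regions and sets, so these values are a description. The 5p and 3p arms of 1 hairpin had a median rho of -0.06 over 8 hairpins. The 5 arms outside the cluster most like miR-432-5p, of 373 with at least 10 CPM, were miR-31-3p (rho 0.65), miR-34b-3p (0.63), miR-4296-3p (0.56), miR-106a-5p (0.56) and miR-582-3p (0.52).

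The neighbouring miR-379/miR-410 cluster gave 63 tested arms, with a median level of 5.27 CPM and up to 228 CPM for a single arm, against 33.5 CPM for the highest arm here. In it edgeR called 0 of 63 arms higher and 4 lower in VZ against CP, and 0 higher and 6 lower in OSVZ against CP. The medians were -0.49 and -1.12. Over all arms edgeR called 2.63% higher and 4.74% lower in VZ, and 2.11% higher and 4.21% lower in OSVZ. The members of the miR-127/miR-136 cluster had medians of -0.03 and -0.30 in the same comparisons, and all arms -0.22 and -0.20. Both comparisons share the CP libraries, and the 2 clusters were not tested against each other. The most abundant called arm there was miR-376c-3p, at 138 ± 67.2 CPM in VZ, 108 ± 27.5 CPM in OSVZ and 498 ± 334 CPM in CP (SD, n = 4, 6 and 4). It fell by 1.71 ± 0.43 in VZ (edgeR adjusted p = 0.00854). It was followed by miR-487b-3p, miR-323-3p and miR-495-3p, the last called only in OSVZ. The arm miR-770-5p, from an intron of MEG3, did not pass in either comparison, at 17.2 ± 24.4 CPM in VZ, 4.79 ± 5.07 CPM in OSVZ and 11.1 ± 2.49 CPM in CP.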

How the data were processed

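Per the labels' protocols, regions were cut with a UV laser microscope, RNA was taken with a Qiagen kit, and libraries of size-selected small RNA went to SOLiD sequencing. The authors deposited raw read counts per miRNA name and arm. The sources do not name the aligner, genome build, annotation or handling of multiply mapping reads. Columns were assigned to set 1 or set 2 from the regions each table holds and their spelling. A further 12 value columns, whose names match no label, were not used, and 6 labelled samples are not analysed here.

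The 828 names in both tables (of 861 and 868) were kept. The 1139 arms passing filterByExpr by region, with 99.99% of counts, were scaled by TMM. The main test was edgeR's (version 4.0.16, R 4.3.3) quasi-likelihood F test with the set as a block, 6 residual and 28.1 prior degrees of freedom. Contrasts were between averages of regions, with the area 17 sublayers averaged first, and Benjamini-Hochberg adjustment ran over all arms at a threshold of 0.05. Arm ratios went through limma 3.58.1, and DESeq2 1.42.0 was an alternative. The scripts were tested on simulated data. The simulated counts and arm ratios had a smaller spread than the real ones, and count changes were placed only in arms at 10 CPM or more. That check speaks of the code, not of the power to find changes in these members.

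The labels give each set its own embryonic day, which makes the sets a block. Regions of a set deviated together, at a median correlation of 0.35 over 21 region pairs (0.05 to 0.62), of which 20 were above 0.1. These are correlations across arms, not independent replicates.

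Values per library are given for members averaging 10 CPM or more and for members named for a result. The members, lists and tests were chosen with earlier results of these data known. Arms outside the cluster were named by likeness (rank correlation with the most abundant member), by level among called arms, or as markers. Because PCR copies carry no molecular identifier, the intervals of shares cover counting error only. Alternatives were other scalings, tests and filters, no block, counts summed per set and zone, other pseudocounts and minimum counts for arm ratios, and leaving out libraries. Leaving VZ_18 of set 1 out of the summed level and of the pooled arm shares was added after seeing the data.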

Additional observations from a re-analysis of the deposited data

Results flagged for a closer look

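Within zones of 4 to 6 libraries, 17 of the highest or lowest values of the 18 arms lay far from the nearest other library by Dixon's criterion, over 54 groups of values, where chance gives about 1 in 20. The same count was not made over all arms, so no excess in the cluster can be read from it. Values near 0 in most libraries make such gaps frequent. Of these, 6 were in VZ_18 of set 1, namely miR-337-3p (120 CPM), miR-431-3p (69.6 CPM), miR-136-3p (44.1 CPM), miR-431-5p (20.1 CPM), miR-370-5p (9.69 CPM) and miR-665-3p (6.80 CPM). In the other VZ libraries these 6 arms were at 17.7 CPM or less.

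In OSVZ the separate values were miR-433-5p in OSVZ_18 of set 2 (43.2 CPM), miR-337-3p in OSVZ_17ext of set 1 (39.5 CPM), miR-432-3p in OSVZ_17int of set 2 (12.6 CPM), miR-493-3p in OSVZ_17ext of set 1 (4.46 CPM), miR-370-5p in OSVZ_18 of set 1 (3.31 CPM) and miR-665-5p in OSVZ_18 of set 1 (0.265 CPM, from 2 counts). In CP they were miR-136-3p in CP_18 of set 2 (37.3 CPM), miR-493-5p in CP_18 of set 2 (28.6 CPM), miR-433-3p in CP_17 of set 1 (7.36 CPM) and miR-431-5p in CP_17 of set 2 (2.50 CPM). The last one was miR-665-5p in VZ_18 of set 2 (0.145 CPM, from 1 count). No difference between sets or between zones in the effects of zone or area passed an edgeR test of the difference itself for a member arm. Over the 5 such differences 1 call was made among all 1139 arms, so the 0 says nothing particular about the members.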

How the results depend on the processing

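With the 1 called member as the base, the count of member arms called in VZ against CP was 0 without the replicate block, 0 when scaled by library totals, 0 when only arms at 10 CPM or more were fitted, 2 with no filter, 3 with DESeq2 and 0 to 2 with 1 library left out. That limit of 10 CPM was set before TMM scaling and kept 7 members. The count for OSVZ against CP, 0 in the report, was 2 with DESeq2, 1 without VZ_18 of set 1 and VZ_17 of set 2 together, and 0 to 1 with 1 library left out. For area 17 against area 18 it was 2 with DESeq2, 2 with no filter and 0 to 1 with 1 library left out, and for set 1 against set 2 it was 2 with DESeq2. The replicate block changed the call of no other member. Over all arms the calls in VZ against CP numbered 84, against 53 without the block, 169 with DESeq2 and 53 to 120 with 1 library left out. In OSVZ against CP they numbered 72, against 120 with DESeq2, 125 without the same 2 libraries, 41 when the counts of a zone were summed within each set and 44 to 100 with 1 library left out. In OSVZ against VZ 1 arm was called, against 28 with DESeq2 and 0 to 24 with 1 library left out. Between areas 1 was called, against 16 with DESeq2, 11 with no filter and 0 to 24 with 1 library left out, and between sets 58, against 181 with DESeq2, 115 with library totals and 29 to 85 with 1 library left out.

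Near 0, differences of VZ from CP changed sign, none of them passing the threshold. That of miR-493-5p was -0.04, against 0.10 without the block, 0.21 with DESeq2 size factors, 0.39 with library totals, 0.21 with DESeq2, 0.20 with no filter, 0.048 with only arms at 10 CPM or more, 0.26 without the 2 libraries, 0.031 with summed counts and -0.43 to 0.48 with 1 library left out. With DESeq2 size factors, library totals, DESeq2 and no filter, in this order, miR-127-3p was at 0.080, 0.29, 0.079 and 0.041, miR-432-5p at 0.21, 0.40, 0.21 and 0.23, and miR-370-3p at 0.23, 0.35, 0.23 and 0.20. With only arms at 10 CPM or more miR-432-5p was at 0.059 and miR-370-3p at 0.050. Without the 2 libraries the 3 arms were at 0.13, 0.19 and 0.27, and with summed counts miR-127-3p was at 0.14 and miR-432-5p at 0.063. With 1 library left out they ran from -0.46 to 0.26, from -0.33 to 0.50 and from -0.56 to 0.50. Without the 2 libraries miR-337-3p was at -2.26, and with 1 left out it ran from -2.06 to 0.69. The difference of miR-431-5p also changed sign, though at 4.26 it was not near 0. It was -3.11 without the 2 libraries and ran from -1.79 to 5.05 with 1 left out. DESeq2 with all libraries called it (4.83, DESeq2 adjusted p = 0.0354). In OSVZ against CP the ranges with 1 left out were -1.09 to 0.13 for miR-493-5p and -0.10 to 0.73 for miR-432-5p, and in OSVZ against VZ -1.47 to 2.004 for miR-433-5p. The cause was not tested. Scaling moved the median of all arms in VZ against CP from -0.22 with TMM to 0.21 with library totals, and the split of calls was 30 higher and 54 lower with TMM, 34 and 42 with DESeq2 size factors and 37 and 32 with library totals. In OSVZ against CP the split was 24 and 48, 35 and 44, and 38 and 34 in the same order, and between sets 39 and 19, 35 and 17, and 22 and 93. In VZ against CP the 10 tested arms under 10 CPM had standard errors of 1.39 to 1.94, against 0.67 to 1.22 for the 6 abundant arms. The part of depth in this, with 1 count at 0.0932 to 0.230 CPM, was not tested.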
